A study of Mus musculus with 2 samples.

Results

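Killer lectin-like receptors are C-type lectin-like proteins of the cell surface that natural killer (NK) cells and some T cells use to read the state of other cells. Inhibitory members carry a tyrosine-based motif that recruits phosphatases, and activating members signal through small adaptor proteins. In the mouse most of their genes lie in the natural killer gene complex on chromosome 6, and the number of Klra (Ly49) genes differs between inbred strains. The genes were taken as all symbols that begin with Klr followed by a letter from a to k, with the transcript of the highest mean level for each symbol. That pattern matched 36 of the 22020 gene symbols in the table (46 of 28344 transcripts). Klraq1 is not a receptor gene: its accession belongs to Ppp1r21, a phosphatase 1 regulatory subunit on chromosome 17, in the RefSeq table of GRCm38.p6. It was at 19.2 RPKM (reads scaled by transcript length and library size) in the double knockout and 8.10 RPKM in the p53 knockout library and is left out below, which leaves 35 receptor symbols.

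Levels were measured by RNA sequencing of LSK cells, a fraction sorted as Lin-Ckit+Sca1+ in which blood stem cells and early progenitors are found, from 8-week-old C57BL/6 mice. The 2 genotypes were Utx/p53 double knockout (DKO), a knockout of the histone demethylase gene Kdm6a (Utx) and of p53, and p53 KO. Both are labelled as p53 knockouts, the p53 KO sample is also titled WT-LSK, and the labels name neither the allele nor any Cre line. Each genotype had 1 library, with 19926294 reads for Utx/p53 DKO and 17088105 reads for p53 KO in the file header, so no test between genotypes was possible. No difference below has a replicate check, and every interval covers counting error only.

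Kdm6a was at 1.26 RPKM in the Utx/p53 DKO and 5.32 RPKM in the p53 KO library, a ratio of 0.236 (95% interval 0.193 to 0.287). Trp53 had reads in both libraries, at 12.9 RPKM (456 reads) in the Utx/p53 DKO and 19.4 RPKM (587 reads) in the p53 KO library, so its transcript level does not show the labelled p53 knockout. Of 4 genes of LSK cells, 3 were at least 2-fold lower in the Utx/p53 DKO library. Kit was at 16.0 RPKM in the Utx/p53 DKO and 64.2 RPKM in the p53 KO library, Cd34 at 49.1 and 348, Meis1 at 15.7 and 134 and Ly6a, which encodes Sca-1, at 281 and 255 RPKM. Over all 11356 measured genes (mean of both libraries 1 RPKM or more), the median log2 ratio of Utx/p53 DKO over p53 KO was -0.24 on the log2(RPKM + 1) scale. On that scale 6.60% of them were at least 2-fold higher in the Utx/p53 DKO library and 13.5% lower. Granulocyte and monocyte markers summed to 70802 RPKM in the Utx/p53 DKO and 6285 RPKM in the p53 KO library. Of these 13 genes, 11 were at least 2-fold higher and 2 lower: Elane was at 26714 RPKM in the Utx/p53 DKO and 1649 RPKM in the p53 KO library, Lyz2 at 15319 and 1303, Ly6c2 at 15136 and 919.5 and Ctsg at 1160.4 and 108, but Ltf at 5.42 and 32.9 and Itgam at 2.62 and 7.10 RPKM. The part of these differences in the receptor values was not tested.

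Nearly all receptor symbols had higher values in the Utx/p53 DKO library. Of the 35, 31 were above their p53 KO value, 3 were below it (Klra10, Klra17 and Klrg2) and Klri1 had no reads in either library. The exact 95% interval of the RPKM ratio lay above 1 for 31 of the 34 symbols with reads, below 1 for Klra17 and Klrg2, and held 1 for Klra10. Among all 17638 symbols with recovered reads, 18.1% had an interval above 1 and 49.4% below 1. In the authors' deposited table the GFOLD value, a conservative log2 fold change, was above 0 for 31 receptor symbols, below 0 for Klra17 and 0 for Klra10, Klrg2 and Klri1. GFOLD values were above 0 for 31.0% of all symbols and below 0 for 18.8%.

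**Figure D1:**
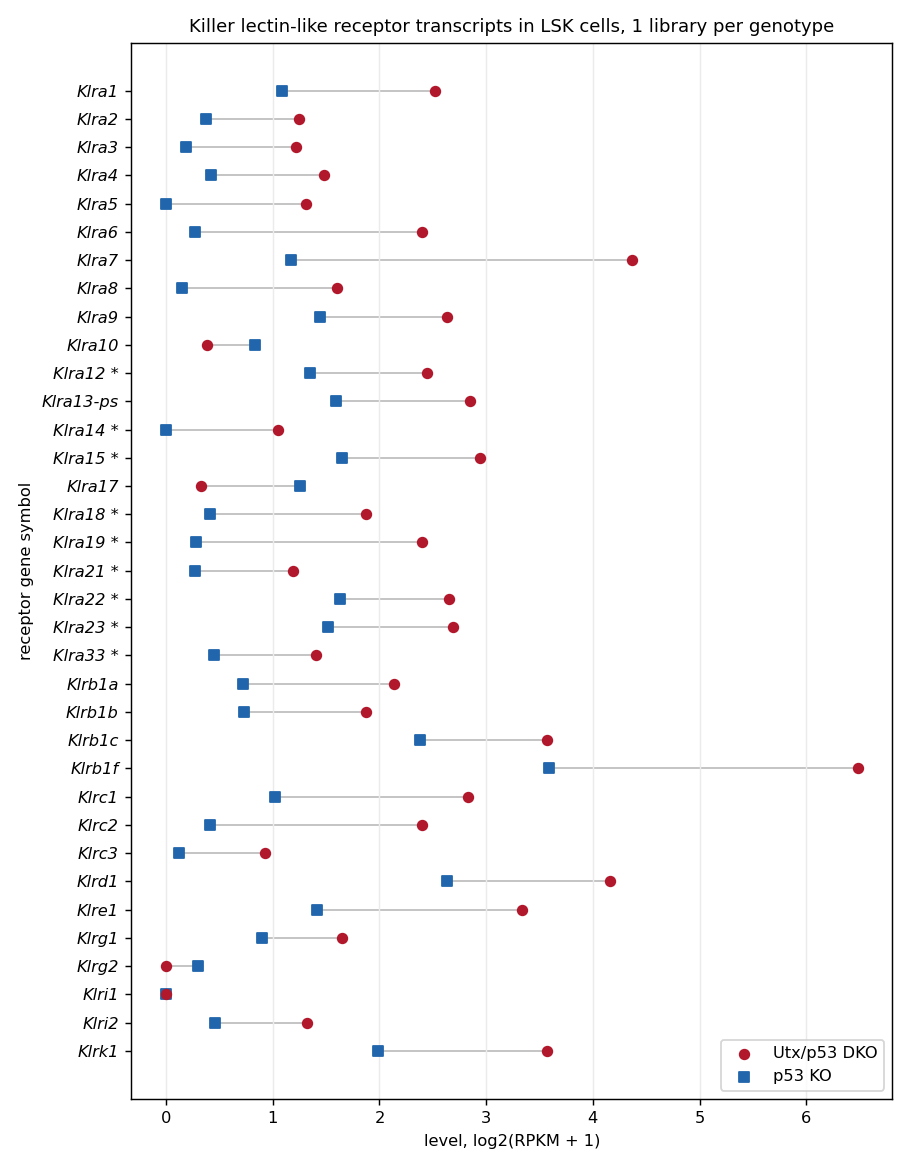
Level of each of the 35 receptor symbols as log2(RPKM + 1) on the horizontal axis, with circles for the Utx/p53 DKO and squares for the p53 KO library and genes ordered by subfamily. An asterisk marks the 9 Klra symbols whose accession was not matched to the GRCm38.p6 RefSeq table. The circle lies right of the square for 31 symbols, and Klrb1f is the highest in both libraries.

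By a difference of at least 2-fold on log2(RPKM + 1), 22 of the 24 receptor symbols with a mean of at least 1 RPKM were higher in the Utx/p53 DKO library and 0 were lower, while 6.60% of all genes with that mean were higher and 13.5% lower. The 2 within 2-fold were Klrg1 and Klra33. Their median log2 ratio was 1.43, beside -0.24 for all genes. Of those 24 symbols, 10 passed the filter with a p53 KO value under 1 RPKM, so they had to be higher in the Utx/p53 DKO library. Of the 15 symbols with at least 1 RPKM in the p53 KO library, a limit that does not use the Utx/p53 DKO value, 14 passed the 2-fold limit upwards and 0 downwards, against 4.98% and 14.9% of all such genes. The remaining one was Klra17. The 2-fold count depends on the scale for these low genes: it was 4 of 24 with a pseudocount of 5 and 13 of 24 after scaling to equal summed RPKM, with 0 lower in both.

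**Figure D2:**
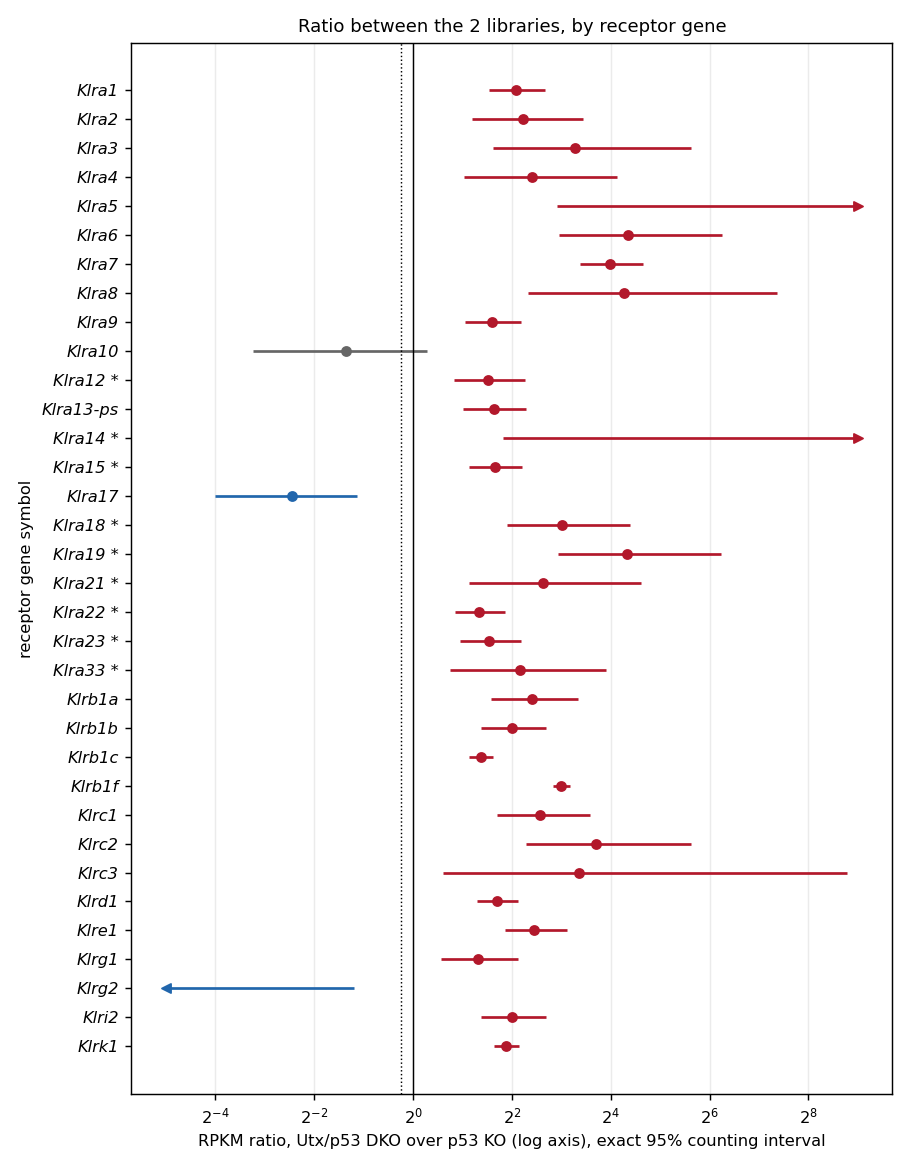
RPKM ratio of Utx/p53 DKO over p53 KO for the 34 receptor symbols with reads, on a log axis, with the exact 95% counting interval as a line and an asterisk for symbols not matched to the GRCm38.p6 RefSeq table. The solid vertical line marks a ratio of 1 and the dotted line the median log2(RPKM + 1) ratio of all measured genes. Arrowheads mark intervals that run past the axis or genes with 0 reads in a library, and the lines that reach left of 1 belong to Klra10, Klra17 and Klrg2.

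The Klrb1 (NKR-P1) genes had the highest summed level of the subfamilies in the Utx/p53 DKO library. In the p53 KO library the 21 Klra symbols summed higher, at 18.1 RPKM against 16.6 RPKM. Klrb1f, an NKR-P1 receptor that binds Clec2i in the mouse, was at 88.5 RPKM (2741 reads) in the Utx/p53 DKO and 11.1 RPKM (294 reads) in the p53 KO library, a ratio of 8.00 (95% interval 7.09 to 9.05). It was the most abundant receptor transcript in both libraries and ranked 86 of 11356 measured genes by its increase. Its share of the summed RPKM of all receptor symbols was 37.1% in the Utx/p53 DKO and 23.3% in the p53 KO library. Klrb1c, which encodes NK1.1, the antigen that defines NK cells in C57BL/6 mice, was at 10.9 RPKM (571 reads) in the Utx/p53 DKO and 4.20 RPKM (189 reads) in the p53 KO library, a ratio of 2.59 (95% interval 2.19 to 3.07). The intervals of Klrb1f and Klrb1c do not overlap, so within this subfamily the increase was unequal in these libraries. Klrb1a, an activating member, was at 3.39 RPKM (86 reads) in the Utx/p53 DKO and 0.643 RPKM (14 reads) in the p53 KO library. Klrb1b, an inhibitory receptor for Clec2d, was at 2.65 RPKM (117 reads) in the Utx/p53 DKO and 0.661 RPKM (25 reads) in the p53 KO library. The 4 Klrb1 genes together had 105 RPKM in the Utx/p53 DKO and 16.6 RPKM in the p53 KO library, a ratio of 6.36, and Klrb1f made up 83.9% and 66.8% of these sums.

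CD94 and NKG2 proteins, encoded by Klrd1 and the Klrc genes, form dimers that bind the class I molecule Qa-1 (H2-T23). Klrd1, the shared CD94 chain, was at 16.8 RPKM (241 reads) in the Utx/p53 DKO and 5.22 RPKM (64 reads) in the p53 KO library, a ratio of 3.23 (95% interval 2.44 to 4.32). Klrc1, the inhibitory NKG2A chain, was at 6.09 RPKM (83 reads) in the Utx/p53 DKO and 1.03 RPKM (12 reads) in the p53 KO library, a ratio of 5.93 (95% interval 3.22 to 11.9). Klrc2, the activating NKG2C chain, was at 4.27 RPKM (61 reads) in the Utx/p53 DKO and 0.326 RPKM (4 reads) in the p53 KO library, a ratio of 13.1 (95% interval 4.85 to 49.5). The interval of Klrc2 lies above that of Klrd1 and overlaps that of Klrc1. Klrc3, the NKG2E chain, stayed below the filter, at 0.904 RPKM (12 reads) in the Utx/p53 DKO and 0.0879 RPKM (1 read) in the p53 KO library. The values of Klrc1 and Klrc2, an inhibitory and an activating partner chain of CD94, were both higher in the Utx/p53 DKO library. Klrc2 passed the filter only through its Utx/p53 DKO value, which fixed its direction. The Klrc transcripts also share sequence, as given below, so their values are uncertain between copies and not independent. The ligand gene H2-T23 was at 13.8 RPKM in the Utx/p53 DKO and 14.3 RPKM in the p53 KO library.

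Klrk1 encodes NKG2D, an activating receptor for stress-induced ligands that signals through the adaptors DAP10 (Hcst) and DAP12 (Tyrobp). It was at 10.9 RPKM (686 reads) in the Utx/p53 DKO and 2.96 RPKM (160 reads) in the p53 KO library, a ratio of 3.68 (95% interval 3.09 to 4.40). Klre1, which forms dimers with Klri1 or Klri2, was at 9.12 RPKM (166 reads) in the Utx/p53 DKO and 1.67 RPKM (26 reads) in the p53 KO library, a ratio of 5.48 (95% interval 3.61 to 8.63). Its partners differed from each other. Klri2, the activating partner, was at 1.501 RPKM (117 reads) in the Utx/p53 DKO and 0.374 RPKM (25 reads) in the p53 KO library, and Klri1, the inhibitory partner, had 0 reads in both. Klrg1, an inhibitory receptor for cadherins found on mature NK and effector T cells, was at 2.14 RPKM (58 reads) in the Utx/p53 DKO and 0.861 RPKM (20 reads) in the p53 KO library, a ratio of 2.49 (95% interval 1.47 to 4.37). Klrg2 had 0 reads in the Utx/p53 DKO and 9 reads (0.231 RPKM) in the p53 KO library. That is 3.50-fold lower when the floor of 3 reads per library replaces 0, and the exact 95% interval reaches down to 2.30-fold.

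The Klra (Ly49) subfamily is the largest, with 21 symbols, of which 12 had an accession in the GRCm38.p6 RefSeq table and 9 were not matched to it. Of the 12, 7 had a mean of at least 1 RPKM, and Klra4, Klra6 and Klra8 among them reached it through the Utx/p53 DKO value. Klra7 (Ly49G), an inhibitory receptor for class I molecules, was at 19.7 RPKM (422 reads) in the Utx/p53 DKO and 1.25 RPKM (23 reads) in the p53 KO library, a ratio of 15.7 (95% interval 10.3 to 25.1). It had the largest log2 ratio of the receptor symbols and ranked 54 of 11356 measured genes. Klra7 made up 24.2% of the summed Klra level in the Utx/p53 DKO and 6.91% in the p53 KO library. Klra6 (Ly49F), also inhibitory, was at 4.27 RPKM (95 reads) in the Utx/p53 DKO and 0.210 RPKM (4 reads) in the p53 KO library. Klra1 (Ly49A) was at 4.76 RPKM (158 reads) in the Utx/p53 DKO and 1.12 RPKM (32 reads) in the p53 KO library, a ratio of 4.23 (95% interval 2.88 to 6.40). Klra9 (Ly49I) was at 5.21 RPKM (124 reads) in the Utx/p53 DKO and 1.72 RPKM (35 reads) in the p53 KO library, a ratio of 3.04 (95% interval 2.07 to 4.56). The interval of Klra7 lies above those of Klra1 and Klra9. The 2 activating receptors of this strain were also higher. Klra8 (Ly49H), which binds a cytomegalovirus protein, was at 2.04 RPKM (45 reads) in the Utx/p53 DKO and 0.106 RPKM (2 reads) in the p53 KO library, a ratio of 19.3 (95% interval 5.04 to 164). Its other transcript had 45 reads (1.92 RPKM) in the Utx/p53 DKO and 4 reads (0.199 RPKM) in the p53 KO library. Klra4 (Ly49D) was at 1.78 RPKM (31 reads) in the Utx/p53 DKO and 0.336 RPKM (5 reads) in the p53 KO library. The pseudogene Klra13-ps was at 6.22 RPKM (101 reads) in the Utx/p53 DKO and 2.01 RPKM (28 reads) in the p53 KO library.

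The other Klra genes of the RefSeq table had a mean below 1 RPKM and did not all go the same way. Klra5 (Ly49E) had 34 reads (1.48 RPKM) in the Utx/p53 DKO and 0 in the p53 KO library. That is 9.72-fold higher with the p53 KO value set at the floor of 3 reads, and the exact 95% interval reaches down to 7.48-fold. Klra3 (Ly49C) was at 1.32 RPKM (34 reads) in the Utx/p53 DKO and 0.136 RPKM (3 reads) in the p53 KO library. Klra2 (Ly49B), known from myeloid cells rather than NK cells, was at 1.38 RPKM (49 reads) in the Utx/p53 DKO and 0.295 RPKM (9 reads) in the p53 KO library. Klra17 (Ly49Q), known from plasmacytoid dendritic cells and myeloid cells rather than NK cells, went the other way, at 0.256 RPKM (6 reads) in the Utx/p53 DKO and 1.39 RPKM (28 reads) in the p53 KO library, a ratio of 0.184 (95% interval 0.0622 to 0.452). Beside it Siglech, which marks that dendritic cell type, was at 0.586 RPKM in the Utx/p53 DKO and 25.2 RPKM in the p53 KO library, and its part in the Klra17 value was not tested. Across the whole macrophage and dendritic cell list, 5 of 9 measured genes were at least 2-fold higher and 2 lower. The shares among all measured genes were 6.60% higher and 13.5% lower. Klra10 (Ly49J) was at 0.305 RPKM (5 reads) in the Utx/p53 DKO and 0.782 RPKM (11 reads) in the p53 KO library, an interval of the ratio (0.106 to 1.22) that holds 1.

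The 9 Klra symbols not matched to the GRCm38.p6 RefSeq table were Klra12, Klra14, Klra15, Klra18, Klra19, Klra21, Klra22, Klra23 and Klra33, several of which name Ly49 genes or alleles described in other mouse strains. All 9 were higher in the Utx/p53 DKO library, where they summed to 32.8 RPKM, against 8.75 RPKM in the p53 KO library. Their read numbers resembled those of genes of the table. Klra19 had 94 reads in the Utx/p53 DKO and 4 in the p53 KO library, beside 95 and 4 for Klra6. Klra15 had 143 and 39, Klra22 had 130 and 44, Klra23 had 102 and 30 and Klra12 had 77 and 23 reads in the Utx/p53 DKO and p53 KO libraries. With Klra9 and Klra13-ps these 4 symbols had RPKM ratios between 2.53 and 3.14, below the interval of Klra7, a group chosen after its values were seen. Klra18 was at 2.66 RPKM (66 reads) in the Utx/p53 DKO and 0.330 RPKM (7 reads) in the p53 KO library. Klra33 was at 1.65 RPKM (26 reads) in the Utx/p53 DKO and 0.369 RPKM (5 reads) in the p53 KO library, and Klra21 was at 1.28 RPKM (29 reads) and 0.206 RPKM (4 reads). Klra14 had 17 reads in the Utx/p53 DKO and 0 in the p53 KO library. That is 4.86-fold higher with the p53 KO value set at the floor of 3 reads, and the exact 95% interval reaches down to 3.54-fold. The same reads may have been counted for more than 1 of these symbols, so the Klra symbols are not independent counts. With the 12 symbols of the table alone, the Klra sum was 48.7 RPKM in the Utx/p53 DKO and 9.36 RPKM in the p53 KO library, a ratio of 5.21, against 4.50 with all 21.

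Sequence shared between the genes was measured on GENCODE M21 transcripts, matched by accession for all 26 receptor symbols of the RefSeq table. Of the windows of 100 bases, at most 3.04% of any Klra transcript and at most 0.766% of any Klrb1 transcript stood letter for letter in another receptor gene, but 4.96% of Klrc1, 17.5% of Klrc2 and 20.9% of Klrc3. Of the windows of 50 bases, 36.7% of Klra10 and 30.6% of Klra9 stood in another receptor gene, 15.1% of Klra7 stood in Klra13-ps and 41.5% of Klrc2 stood in another receptor gene. None did for Klrb1f, Klrd1, Klre1, Klrk1, Klrg1, Klrg2, Klra2 and Klra17. For Klrb1f, Klrk1 and Klrb1c only part of the counted sequence was compared: their GENCODE transcripts had 773, 1019 and 1658 bases, and the deposited transcripts 1554, 3158 and 2632 bases. Whether the rest of those transcripts is shared was not tested, while the values of the Klrc genes and of Klra3, Klra7, Klra8, Klra9 and Klra10 are uncertain between copies. The 9 unmatched Klra symbols were not compared. Sharing with them was therefore not tested for any Klra gene, among them Klra6, with 95 and 4 reads beside 94 and 4 for Klra19.

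**Figure D3:**
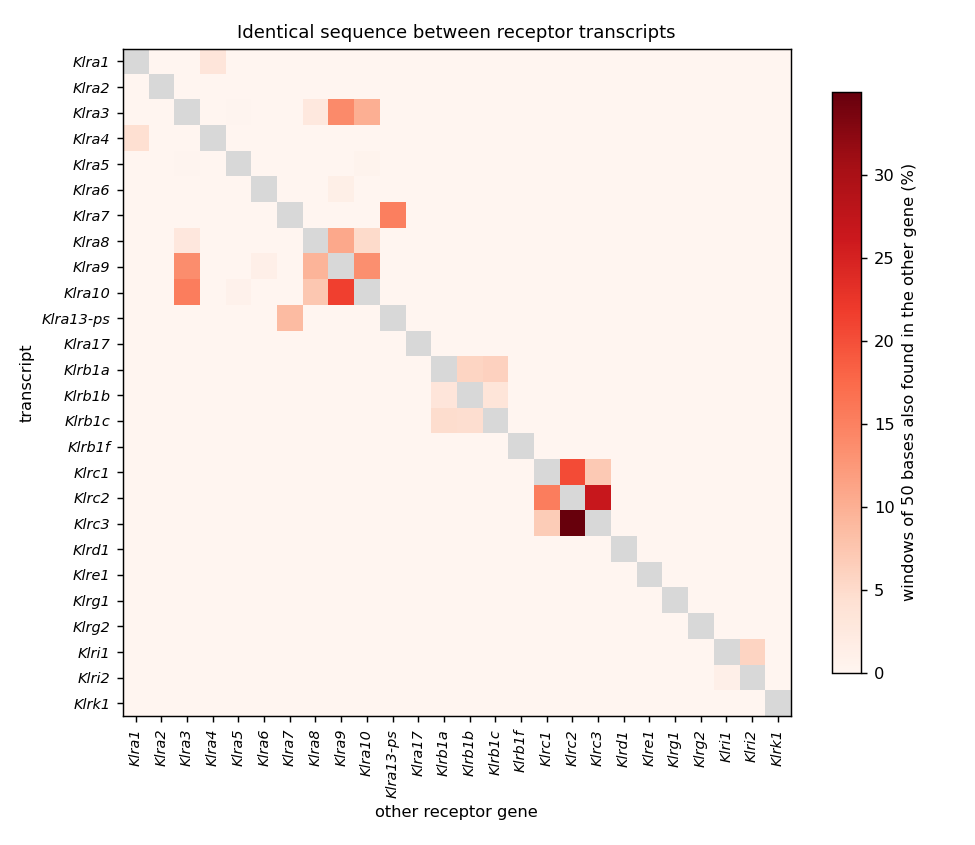
Share of each transcript's windows of 50 bases (rows) that stand letter for letter in another receptor gene (columns), in percent, for the 26 receptor symbols with a GENCODE transcript. Grey marks a gene with itself. The largest shares are those of Klrc3 in Klrc2 (35.0%), Klrc2 in Klrc3 (26.6%), Klra10 in Klra9 (21.4%) and Klrc1 in Klrc2 (20.3%).

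By signalling class, taken from general knowledge of the family, 11 receptor genes were classed as inhibitory and 7 as activating. Klra10, Klra13-ps, Klrb1f, Klrd1, Klre1, Klrg2, Klri2 and the 9 unmatched Klra symbols were given no class. Klri2, named above as an activating partner, is thus not in the activating sum. Klri1, with 0 reads in both libraries, is also outside these classes. The summed level of the inhibitory genes was 49.3 RPKM in the Utx/p53 DKO and 8.67 RPKM in the p53 KO library, and that of the activating genes was 34.2 against 8.67 RPKM in the same order. Klrb1f alone was at 88.5 RPKM in the Utx/p53 DKO and 11.1 RPKM in the p53 KO library, above either class sum. These sums therefore do not rank the classes over the whole family.

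Along chromosome 6 in GRCm38.p6, 24 of the 26 receptor genes come in the order Klrb1a, Klrb1c, Klrb1b, Klrb1f, Klre1, Klrd1, Klrk1, Klrc3, Klrc2, Klrc1, Klri1, Klri2, Klra17, Klra5, Klra6, Klra4, Klra8, Klra9, Klra7, Klra10, Klra13-ps, Klra3, Klra1 and Klra2, and Klrg2 and Klrg1 precede them. This is the order of the receptor genes alone, and other genes between them were not counted. The genes that did not have a higher value in the Utx/p53 DKO library stood apart from each other in that order: Klrg2 at place 1 of 26, Klri1 at 13, Klra17 at 15 and Klra10 at 22. Klra10 lies between Klra7 and Klra13-ps, both of which were higher.

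The sequence just upstream of the start is shown for 5 genes that the results turn on: Klra7 with the largest log2 ratio, Klrb1f with the highest level, Klrk1 as an activating receptor, and Klra4 and Klra17, whose upstream sequences are alike but whose values went in opposite directions. Each is the 250 bases before the first listed RefSeq start (build GRCm38.p6), written 5′ to 3′ in the direction of the gene, at chr6:130231688-130231937 (minus strand) for Klra7, chr6:129045651-129045900 (plus strand) for Klrb1f, chr6:129623865-129624114 (minus strand) for Klrk1, chr6:130067272-130067521 (minus strand) for Klra4 and chr6:129876673-129876922 (minus strand) for Klra17. Capitals mark matches, on either strand, to 5 short motifs. The Runx core was searched as TGTGGT. The core of T-box factors was searched as GGTGTG. The letters of ETS factors were GGAAGT, and those of Nfil3 were TTACNTAA, where N is any base. The TATA box was searched as TATAAA.
Klra7: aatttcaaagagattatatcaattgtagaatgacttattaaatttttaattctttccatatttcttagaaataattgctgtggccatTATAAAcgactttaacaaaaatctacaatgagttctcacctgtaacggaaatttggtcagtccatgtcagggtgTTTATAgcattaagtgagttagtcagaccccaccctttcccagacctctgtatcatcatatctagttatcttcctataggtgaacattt
Klrb1f: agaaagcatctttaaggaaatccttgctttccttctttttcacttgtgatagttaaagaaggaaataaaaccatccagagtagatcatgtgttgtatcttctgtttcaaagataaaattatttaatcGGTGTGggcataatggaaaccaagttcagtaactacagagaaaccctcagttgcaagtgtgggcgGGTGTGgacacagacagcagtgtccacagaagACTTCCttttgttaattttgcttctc
Klrk1: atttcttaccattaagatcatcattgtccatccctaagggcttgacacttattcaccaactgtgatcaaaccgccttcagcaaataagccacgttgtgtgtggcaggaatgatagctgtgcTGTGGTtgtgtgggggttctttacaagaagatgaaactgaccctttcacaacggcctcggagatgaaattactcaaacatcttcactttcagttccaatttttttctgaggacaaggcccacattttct
Klra4: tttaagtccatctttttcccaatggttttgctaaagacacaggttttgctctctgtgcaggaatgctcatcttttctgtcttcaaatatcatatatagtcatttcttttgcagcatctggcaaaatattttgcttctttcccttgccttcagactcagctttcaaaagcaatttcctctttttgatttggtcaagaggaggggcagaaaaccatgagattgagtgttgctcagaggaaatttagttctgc
Klra17: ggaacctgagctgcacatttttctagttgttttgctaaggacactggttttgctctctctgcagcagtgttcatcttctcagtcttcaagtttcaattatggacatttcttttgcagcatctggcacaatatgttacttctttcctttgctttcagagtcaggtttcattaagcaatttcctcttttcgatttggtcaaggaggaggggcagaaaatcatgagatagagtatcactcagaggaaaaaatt

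Klra4 and Klra17 shared 65.6% of these 250 positions at the best ungapped offset, and neither held any of the 5 motifs. Klra4 shared more, 84.8%, with Klra8, which like Klra4 was higher in the Utx/p53 DKO library. Klra7 held TATA box letters at positions -163 and -89 from the start, Klrb1f held T-box letters at -123 and -58 and ETS letters at -26, and Klrk1 held Runx letters at -129. Among the 22 receptor genes with a promoter entry, 8 held the Runx letters (36.4%), against 14.2% of all 27025 promoters. Those 8 were Klrb1a, Klrb1c, Klre1, Klrk1, Klrc1, Klrc2, Klrc3 and Klra1, the last being 1 of 11 Klra genes with an entry. The receptor genes include close copies, so neither this count nor those of the other motifs are counts of independent promoters. TATA box letters stood in 9 of 22 (40.9%, 7 of them Klra genes), against 13.0% of all promoters. T-box letters stood in 3 of 22 against 16.2% of all promoters, ETS letters in 3 of 22 against 20.0% and the Nfil3 letters in 0 of 22 against 2.11%. No matches of different motifs overlapped in these promoters. A match of letters is a description and no measured site.

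Of the adaptors through which activating receptors signal, 3 of 4 were at least 2-fold higher in the Utx/p53 DKO library. Hcst (DAP10) was at 56.4 RPKM in the Utx/p53 DKO and 14.4 RPKM in the p53 KO library, a ratio of 3.91 (95% interval 3.17 to 4.86). Fcer1g was at 256 RPKM in the Utx/p53 DKO and 81.7 RPKM in the p53 KO library, and Tyrobp (DAP12) was at 249.9 against 117 RPKM in the same order. These adaptors also serve receptors of granulocytes and macrophages. Cd247, the zeta chain of T cell and NK receptors, was at 4.17 RPKM in the Utx/p53 DKO and 3.99 RPKM in the p53 KO library. Across the whole list of 23 adaptor and signalling genes, 3 of 21 measured were at least 2-fold higher, 3 at least 2-fold lower and 15 within 2-fold (beside 6.60% higher and 13.5% lower of all measured genes), with a median log2 ratio of -0.27 beside -0.24 for all genes. The lower genes were the T cell linker Lat (7.40 RPKM in the Utx/p53 DKO and 26.04 RPKM in the p53 KO library), the kinase gene Fyn (3.26 and 10.2 RPKM) and the phospholipase gene Plcg1 (0.362 and 2.15 RPKM).

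Ligands of the receptors were also measured in the same libraries. Of 23 ligand genes, 19 were found and 10 had a mean of at least 1 RPKM, of which 2 were at least 2-fold higher, 0 lower and 8 within 2-fold, beside 6.60% higher and 13.5% lower of all measured genes. The higher genes were both lectin-like ligands of the NKR-P1 family of receptors. Clec2g was at 19.7 RPKM (970 reads) in the Utx/p53 DKO and 1.64 RPKM (69 reads) in the p53 KO library, a ratio of 12.1 (95% interval 9.44 to 15.6). Clec2i, a ligand of Klrb1f, was at 59.0 RPKM (1143 reads) in the Utx/p53 DKO and 22.0 RPKM (366 reads) in the p53 KO library, a ratio of 2.68 (95% interval 2.38 to 3.02). Clec2d, the ligand of Klrb1b, was at 5.70 RPKM in the Utx/p53 DKO and 5.21 RPKM in the p53 KO library, with an interval of the ratio (0.846 to 1.42) that holds 1. Class I genes bound by Klra receptors went both ways within 2-fold: H2-D1 was at 324 RPKM in the Utx/p53 DKO and 179 RPKM in the p53 KO library, and H2-K1 at 596 and 1044 RPKM. The NKG2D ligand genes Raet1a to Raet1e and H60b, named after their values were seen, lay between 0.7502 and 1.504 RPKM in the Utx/p53 DKO and between 0.492 and 1.42 RPKM in the p53 KO library, and H60c had 0 reads in both. H60a and Ulbp1 of the list were not found, and sharing of reads between the Raet1 genes was not tested. The listed cadherin genes, ligands of Klrg1, had means below 1 RPKM and lie outside the counts above. Named after their values were seen, they were lower in the Utx/p53 DKO library, with intervals of the ratio below 1. Cdh1 had 0 reads in it and 67 in the p53 KO library, Cdh4 had 10 and 40, and Cdh2 had 2 and 15.

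**Figure D4:**
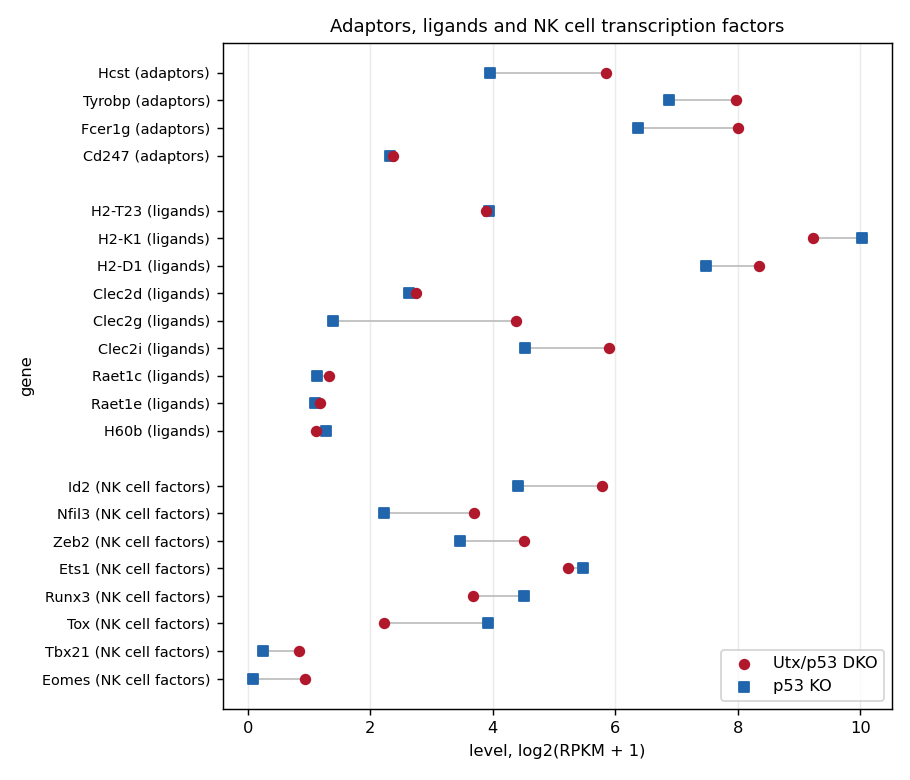
Level as log2(RPKM + 1) of adaptor genes, ligand genes and transcription factors of NK cell development, with circles for the Utx/p53 DKO and squares for the p53 KO library. Hcst, Fcer1g, Tyrobp, Clec2g, Clec2i, Id2, Nfil3 and Zeb2 have their circle at least 1 unit right of the square.

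Among transcription factors of NK cell development, 12 of the 15 found were measured, of which 3 were at least 2-fold higher, 3 at least 2-fold lower and 6 within 2-fold, beside 6.60% higher and 13.5% lower of all measured genes. Their median log2 ratio was -0.51, against -0.24 for all genes. Nfil3, required for NK cell development, was at 11.99 RPKM in the Utx/p53 DKO and 3.67 RPKM in the p53 KO library, and Id2, an inhibitor of E proteins, was at 54.1 and 20.2 RPKM. Lower in the Utx/p53 DKO library were Tox (3.68 RPKM, against 14.1 RPKM in the p53 KO library) and Klf2 (3.70 and 10.2 RPKM). The T-box factors of mature NK cells, named after their values were seen, stayed below 1 RPKM in both libraries. Eomes was at 0.919 RPKM (67 reads) in the Utx/p53 DKO and 0.0640 RPKM (4 reads) in the p53 KO library, and Tbx21 was at 0.787 RPKM (40 reads) and 0.183 RPKM (8 reads).

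NK cell and group 1 innate lymphoid markers other than the receptors moved with them in part. Of 20 markers, all had reads in both libraries, 14 had a mean of at least 1 RPKM, and of these 7 were at least 2-fold higher, 2 lower (Nkg7 and Cd244) and 5 within 2-fold on log2(RPKM + 1) in the Utx/p53 DKO library, beside 6.60% higher and 13.5% lower of all measured genes. Those 5 are low genes, named after their values were seen. Without the pseudocount, the RPKM ratios of Txk, Prf1, Cd226 and Xcl1 were 3.04, 3.16, 3.26 and 2.70, and that of Slamf7 was 0.745. The list summed to 263 RPKM in the Utx/p53 DKO and 268 RPKM in the p53 KO library, of which Nkg7 alone was 99.6 and 229 RPKM. Ncam1, an adhesion molecule, was at 60.8 RPKM in the Utx/p53 DKO and 3.57 RPKM in the p53 KO library. It marks human NK cells, but mouse NK cells are not known to express it. Its value is therefore not read as that of an NK cell marker, although the 7 higher genes and both sums include it. Gzmb was at 28.6 RPKM in the Utx/p53 DKO and 3.55 RPKM in the p53 KO library. Cd160 was at 9.05 and 1.05 RPKM and Gzma at 12.7 and 2.47 RPKM in the same order. The activating receptor gene Ncr1, picked with its level already known, was at 9.40 and 2.60 RPKM. The ratio of Ncr1 was 3.61 (95% interval 2.75 to 4.81), which overlaps those of Klrd1 and Klrk1 and lies below those of Klrb1f and Klra7. T cell markers summed to 101 RPKM in the Utx/p53 DKO and 67.8 RPKM in the p53 KO library (3 of 11 measured at least 2-fold higher and 2 lower, Trat1 at 0 in the Utx/p53 DKO library): Cd28 was at 38.9 and 8.51 RPKM and Cd3d at 16.2 and 4.31 RPKM, but Cd4 at 0.195 and 2.25 RPKM. Macrophage and dendritic cell markers summed to 105 RPKM in the Utx/p53 DKO and 75.3 RPKM in the p53 KO library: Vcam1 was at 32.2 and 2.45 RPKM and Slc40a1 at 17.6 and 2.39 RPKM, but Flt3 at 1.83 and 24.5 RPKM. In bulk RNA, more or fewer cells of a type and more or less RNA per cell cannot be told apart, and the part of these marker genes in the receptor values was not tested.

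**Figure D5:**
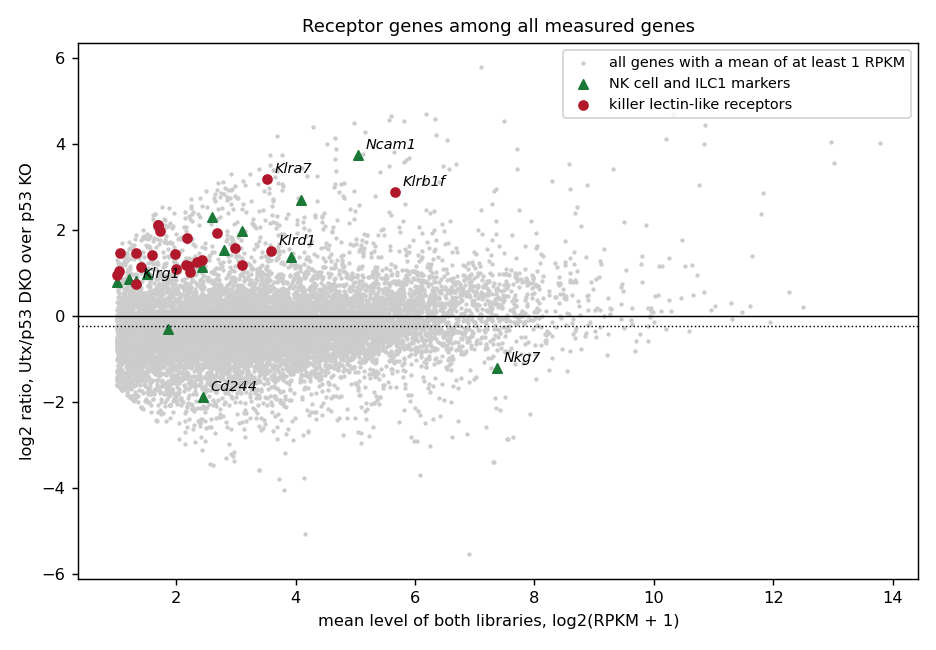
Mean level of both libraries as log2(RPKM + 1) against the log2 ratio of Utx/p53 DKO over p53 KO. All 11356 measured genes are grey. Circles are the 24 measured receptor symbols, and triangles are the 14 measured genes of the NK cell marker list, Ncam1 included. The dotted line is the median of all genes at -0.24. All 24 receptor circles lie above 0, while the triangles of Nkg7 and Cd244 lie below -1.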

How the data were processed

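Per the file headers, gfold 1.1.4 wrote the table, which holds 28344 RefSeq transcripts. The authors deposited RPKM values of each library, a log2 fold change with the GFOLD value (also log2), and a q-value (E-FDR) that is 1 for every transcript. Build mm9, TopHat2 2.1.0 and bcl2fastq 1.8.4 come from the submitters' processing notes. Strandedness and the counting of reads that map to several places are not given in the sources used here. Per the labels' protocols, cDNA was made with a SMART kit and amplified; neither read length nor molecular identifiers are given in the sources used here.

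The header lists WT-LSK (the p53 KO sample's title) first and KO-LSK second, and columns were assigned by that order. Whole reads were recovered from both RPKM values and the log2 fold change at each header read total (checked on simulated data), for all 34 receptor symbols with reads and 93.94% of all symbols with reads. They give exact (Clopper-Pearson) 95% intervals and a floor of 3 reads per library, which cover counting error only. With its constants, the authors' log2 fold change scale lies 0.60 above that of RPKM. Ratios are of RPKM, and log2 ratios use a pseudocount of 1, which understates changes of low genes. Counts of genes at least 2-fold higher or lower use that log2 scale. Since each genotype had 1 library, nothing was tested.

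The members, lists and motifs were chosen with earlier results of these data known. Every receptor symbol with a mean of at least 1 RPKM is named, as are adaptors and up to 4 measured genes per reported list with the largest absolute log2 ratio. Other names (Klr symbols below that mean, Plcg1, Nkg7, Cd244, H2-T23, Clec2d, Ltf, Itgam, Raet1 and H60 genes and those said to be so) were chosen after their values were seen. One list of innate lymphoid markers is not reported here. Alternatives were other pseudocounts, filters, scalings, fold rules and sums over transcripts. Figures used matplotlib 3.10.9 and statistics scipy 1.17.1.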

Additional observations from a re-analysis of the deposited data

How the results depend on the processing

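No paired analysis was possible because each genotype had 1 library. The count of receptor symbols at least 2-fold higher (22 of 24) was 4 with a pseudocount of 5, 6 of 6 with a mean of at least 5 RPKM, 8 with a 3-fold rule, 13 after scaling to equal summed RPKM and 14 of 15 with at least 1 RPKM in the p53 KO library. Under the other alternatives it lay between 16 and 25, and the count at least 2-fold lower was 0 under all of them. The median log2 ratio (1.43) was 1.94 with a pseudocount of 0.1, 0.68 with a pseudocount of 5, 1.14 after scaling to equal summed RPKM and 1.90 with the authors' gfold constants. Scaling on the median, to upper quartiles, to equal sums and by the gfold constants moved the median of all genes by 0.18, -0.10, -0.31 and 0.52. Relative to that median the receptors lay between 1.62 and 1.69 under these 4 scalings. The summed Klra ratio (4.50) was 5.11 with median centring, 3.47 with equal sums, 6.83 with the gfold constants, 5.32 with all transcripts summed and 5.21 with the RefSeq table's symbols alone. The summed Klrb ratio (6.36) was 7.21 with median centring, 4.90 with equal sums and 9.65 with the gfold constants. Of 168 values of the 24 symbols under 7 alternatives, 96 stayed within their counting interval and 72 moved past it. The filter set the direction for 10 of the 24 symbols, and most of these alternatives cannot turn it. The restrictions to the RefSeq table's symbols and to the p53 KO level, and the inclusion of Klraq1 (23 of 25 higher), were chosen after seeing the data. Depth limits the low members: 7 of the 24 had under 10 reads in the p53 KO library.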

Other observations

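Other lectin-like receptor genes of the natural killer gene complex, which are not Klr genes, went both ways. Of 14 listed, 13 were found and 8 had a mean of at least 1 RPKM, of which 5 were at least 2-fold higher, 1 lower and 2 within 2-fold in the Utx/p53 DKO library, beside 6.60% higher and 13.5% lower of all measured genes, with the Clec2 genes of the ligand list counted in both lists. Olr1, a scavenger receptor for oxidised lipoprotein, was at 20.8 RPKM (1478 reads) in the Utx/p53 DKO and 0.902 RPKM (55 reads) in the p53 KO library, a ratio of 23.05 (95% interval 17.6 to 30.7). Clec7a (Dectin-1), a myeloid receptor for beta-glucans, was at 27.5 RPKM in the Utx/p53 DKO and 5.83 RPKM in the p53 KO library. The activation marker Cd69, named after its value was seen, was lower, at 27.1 RPKM in the Utx/p53 DKO and 68.8 RPKM in the p53 KO library. Clec2e had 0 reads in the Utx/p53 DKO and 10 reads in the p53 KO library.

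The transcripts of a receptor symbol differed little within a library for Klrb1f, whose 3 transcripts were at 84.1, 85.8 and 88.5 RPKM in the Utx/p53 DKO library. They differed more for Klra7, whose 2 transcripts had 422 and 361 reads in the Utx/p53 DKO and 23 and 11 reads in the p53 KO library.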
